A study of Mus musculus with 12 samples.

Results

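The interferon-stimulated genes examined here are 37 mouse genes that type I and type II interferons are known to induce, taken by name: factors that carry the signal (Stat2, Irf9, Irf7, Irf1) and restrain it (Usp18), RNA sensors, the oligoadenylate synthetase (OAS) family, antiviral effectors, interferon-inducible GTPases and genes of peptide presentation. All 37 were among the 30452 genes of the count table, and all 37 passed the filter on low counts that left 19189 genes to test. RNA was sequenced from the injured mouse sciatic nerve 14 days after injury, from the bridge, the new tissue that joins the cut ends, and from the distal stump, the nerve beyond it. Nf1 KO mice were P0-CreERT2:YFPfl/fl:Nf1fl/fl and CTL mice were P0-CreERT2:YFPfl/fl:Nf1+/+, so both genotypes carried the P0-driven, tamoxifen-dependent Cre and the YFP reporter allele, and tamoxifen removed Nf1 from myelinating Schwann cells. There were 3 libraries each of Nf1 KO bridge, CTL bridge, Nf1 KO distal stump and CTL distal stump. A sample held 6 pieces of nerve, 0.5 mm each, combined over several mice, so every library mixed Schwann cells with all other cells of the nerve. In such bulk RNA, fewer cells of a type and less RNA per cell cannot be told apart.

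Type I interferons bind the Ifnar1 and Ifnar2 receptor, whose kinases phosphorylate Stat2, and Stat2 joins Irf9 in the complex ISGF3, which binds the interferon-stimulated response element (ISRE) in front of its targets. Interferon-gamma acts mainly at gamma-activated sites (GAS), and the GTPases and peptide-presentation genes respond strongly to it. In injured nerve, macrophages, endothelial cells, fibroblasts and Schwann cells can all carry out such a response, and Nf1 encodes neurofibromin, which restrains Ras.

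Promoter windows are shown for the 3 genes with the smallest p-values in the bridge comparison among those with an adjusted p under 0.05 and an ISRE core match, since these are the elements through which ISGF3 is known to act. The windows run from 250 bases before to 50 bases from the annotated start, come from RefSeq on build GRCm38.p6, and are given 5′ to 3′ on the gene's strand. Capitals mark matches to the ISRE core, a pair of GAAA blocks with any 2 bases between them. Isg15 is on the minus strand at chr4:156200769-156201068, Ifih1 on the minus strand at chr2:62646206-62646505 and Oas3 on the minus strand at chr5:120777610-120777909.
Isg15: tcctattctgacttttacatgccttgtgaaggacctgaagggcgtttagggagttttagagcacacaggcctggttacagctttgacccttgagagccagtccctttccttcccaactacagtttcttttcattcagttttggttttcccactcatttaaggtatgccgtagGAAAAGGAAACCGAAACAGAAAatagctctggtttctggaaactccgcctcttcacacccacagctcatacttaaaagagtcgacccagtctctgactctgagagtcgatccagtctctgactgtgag
Ifih1: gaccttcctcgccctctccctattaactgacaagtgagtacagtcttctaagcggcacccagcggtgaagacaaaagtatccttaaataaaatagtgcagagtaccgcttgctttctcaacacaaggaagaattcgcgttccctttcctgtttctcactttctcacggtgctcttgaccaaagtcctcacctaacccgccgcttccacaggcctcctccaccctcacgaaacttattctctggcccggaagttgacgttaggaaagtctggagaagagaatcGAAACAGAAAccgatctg
Oas3: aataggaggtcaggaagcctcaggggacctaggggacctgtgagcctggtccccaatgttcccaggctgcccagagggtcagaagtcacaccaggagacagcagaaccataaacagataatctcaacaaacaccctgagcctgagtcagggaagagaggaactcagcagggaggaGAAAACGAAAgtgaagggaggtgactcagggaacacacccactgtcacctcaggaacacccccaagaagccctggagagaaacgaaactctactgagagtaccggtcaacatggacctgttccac
In the Isg15 window 3 overlapping matches began 78, 72 and 66 bases before the start. The Oas3 match began 75 bases before the start, and the Ifih1 match 32 bases after it. A window was found for 29 of the 37 genes. None was found for Oas2, Parp14, Dhx58, Mx1, Mx2, Usp18, Tap2 and Rtp4, so these 8 were not searched. The core, searched on both strands, lay in the windows of 16 of those 29 genes (55.2%), against 3.99% of all 27025 genes with a window. The longer form, the core followed by CT, was in 8 of the 29 (27.6%), against 0.303% of all genes. The GAS form TTCNNNGAA was in 9 of the 29 (31%), against 9.55% of all genes. In the bridge 7.81% of all 19189 tested genes were higher in Nf1 KO and 6.76% lower, at an edgeR adjusted p under 0.05. Of the 16 genes with the core, 5 were higher and their median log2 fold change was 0.32. Without it, 2 of 13 genes were higher, at a median of 0.26. For the GAS form, 1 of 9 genes with it was higher, at a median of 0.16, against 6 of 20 genes and a median of 0.33 without it. Whether a motif went with the change was not tested. A match describes letters in a window and not a bound site.

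Library totals ran from 18821445 to 38981819 counts, and 3 counts corresponded to 0.0771 to 0.154 counts per 1000000 counts of the library (CPM, scaled by the trimmed mean of M values). Nf1, which codes for the deleted protein, was at 42.4, 54.7 and 46.4 CPM in Nf1 KO bridge against 62.5, 67.4 and 60.1 CPM in CTL bridge, and at 42.5, 43.1 and 42.3 CPM in Nf1 KO distal stump against 69.7, 57.0 and 67.3 CPM in CTL distal stump. It fell by 0.40 on the log2 scale in the bridge (edgeR adjusted p = 0.0218) and by 0.60 in the distal stump (edgeR adjusted p = 0.00560). Gm15662 took 24.5% of the counts of Nf1 KO distal library 1, and neutrophil markers summed to 1274 CPM in Nf1 KO bridge library 1 against 73.8 to 224 CPM in the 3 CTL bridge libraries. CTL bridge libraries 1 and 3 held the most skeletal muscle RNA, at 8046 and 7088 CPM over 6 markers. The labels call the 3 samples of a group independent but do not tie them to mice, so p-values measure the spread between these pooled samples.

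The 37 genes together took 0.164 to 0.287% of the counts of a library, and every one had at least 30 counts in every library. Per kilobase of exon, the mean level over the 12 libraries was highest for B2m, the light chain of MHC class I, at 1270.6 CPM per kb. Bst2, which tethers budding virions to the cell, followed at 123 CPM per kb, and Isg15, a ubiquitin-like protein that is attached to other proteins, at 28.1 CPM per kb. The lowest levels were those of Ifi44 at 0.556 CPM per kb and Oas3 at 0.310 CPM per kb. The plot of log2 deviations shows each gene in each library.

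**Figure D1:**
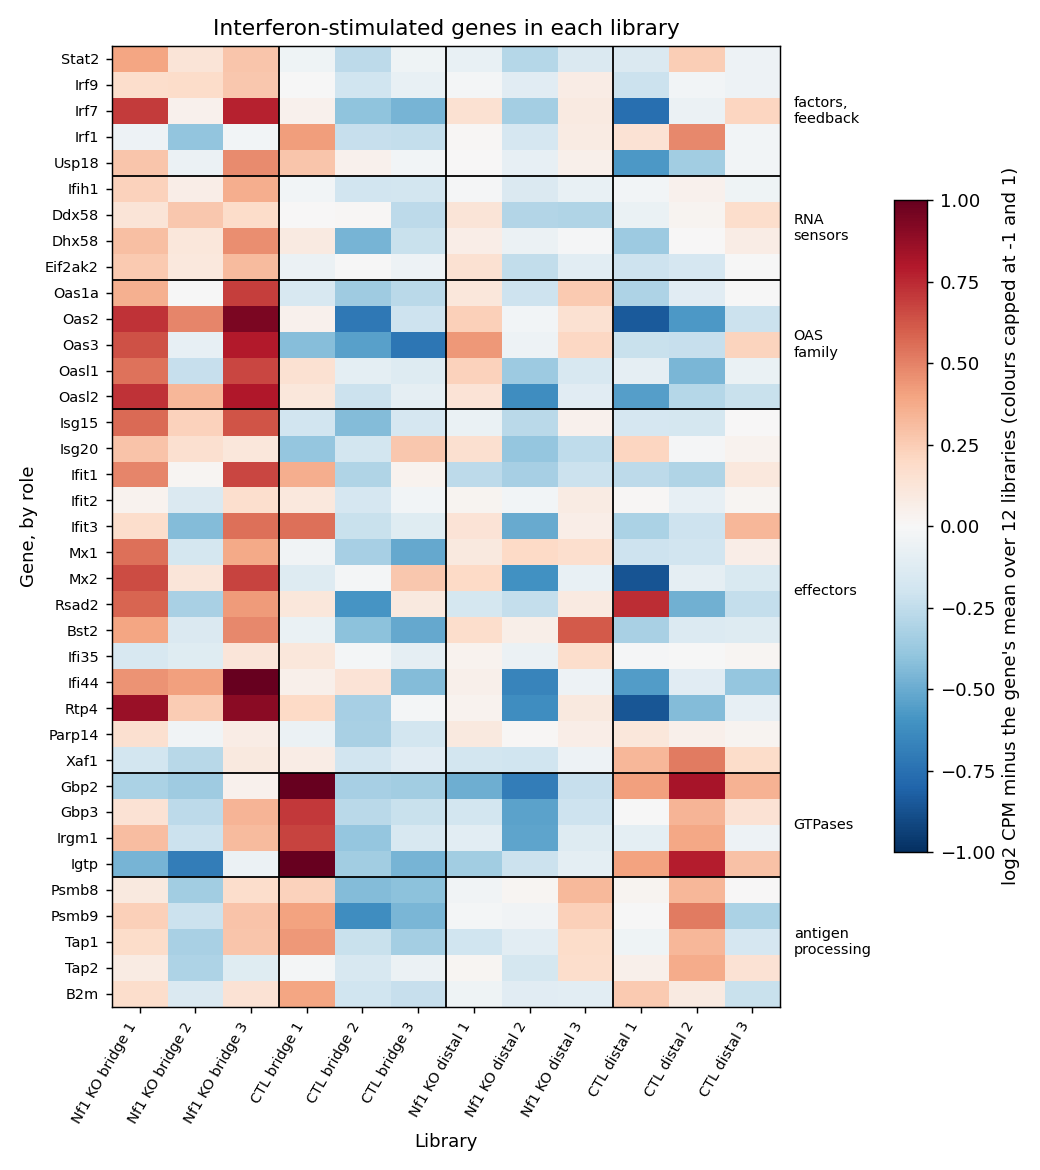
Each row is 1 of the 37 genes, grouped by role, and each column 1 of the 12 libraries; colour is the library's log2 CPM minus the gene's mean over the 12 libraries. Nf1 KO bridge libraries 1, 2 and 3 are above the gene's mean for 32, 15 and 34 genes, against 24, 3 and 4 genes in CTL bridge libraries 1, 2 and 3.

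In the bridge, 9 of the 37 genes were higher in Nf1 KO than in CTL and none was lower, at an edgeR adjusted p under 0.05. That is 24.3%, where 14.6% of all 19189 genes passed, 7.81% higher and 6.76% lower. The 9 were Isg15, Oas2, Oas3, Oasl2, Oas1a, Ifih1, Irf9, Stat2 and Parp14. The fold change was above 0 for 30 of the 37, with a median of 0.28 on the log2 scale, and the median of all tested genes was −0.00. All 3 Nf1 KO libraries lay above all 3 CTL libraries for 15 of the 37 and below them for none. Over all genes the groups did not overlap for 34.4%, with Nf1 KO above for 17.8% and below for 16.7%.

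The OAS family makes oligoadenylates that activate RNase L, which cuts RNA, and 4 of the 5 OAS genes among the 37 were higher in Nf1 KO bridge. Oas2 (chr5:120730333-120749853) was at 8.98, 7.64 and 10.4 CPM in Nf1 KO bridge against 5.58, 3.28 and 4.68 CPM in CTL bridge. Its log2 fold change was 1.00 (SE 0.22, n = 3 each, edgeR adjusted p = 0.0128). The groups did not overlap, and the call held with each of the 12 libraries left out in turn. Oas3 (chr5:120753098-120777661) was at 3.26, 1.96 and 3.64 CPM in Nf1 KO bridge against 1.54, 1.41 and 1.23 CPM in CTL bridge, a log2 fold change of 1.09 (SE 0.26, edgeR adjusted p = 0.0190). Oasl2 was at 38.0, 29.1 and 40.2 CPM in Nf1 KO bridge against 25.0, 19.8 and 21.6 CPM in CTL bridge, a log2 fold change of 0.69 (SE 0.19, edgeR adjusted p = 0.0316). In each of these genes Nf1 KO library 2 was the lowest of its group and still stood above every CTL library. Oas1a was at 15.9, 12.4 and 20.1 CPM in Nf1 KO bridge against 11.1, 9.73 and 10.3 CPM in CTL bridge, a log2 fold change of 0.64 (SE 0.17, edgeR adjusted p = 0.0328). Reads of Oas1a may be shared with its near-copy Oas1g, whose own log2 fold change was 1.01 (edgeR adjusted p = 0.0228). Oasl1, which in mouse is known to hold back Irf7 translation, had overlapping groups and a log2 fold change of 0.40 (edgeR adjusted p = 0.325).

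Isg15 (chr4:156199424-156200818) had the smallest p-value of the 37. It was at 30.7, 24.3 and 32.0 CPM in Nf1 KO bridge against 18.1, 15.3 and 18.4 CPM in CTL bridge. The Nf1 KO mean of 29.0 ± 4.13 CPM was 1.68 times the CTL mean of 17.2 ± 1.70 CPM (SD, n = 3 each), and the log2 fold change was 0.75 (SE 0.12, edgeR adjusted p = 0.00335). The groups were clearly apart, and the call held under all 19 alternative settings.

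Parp14, an ADP-ribosyltransferase, was the other effector past the threshold. It was at 49.7, 43.3 and 46.7 CPM in Nf1 KO bridge against 42.7, 35.5 and 39.1 CPM in CTL bridge, a log2 fold change of 0.25 (SE 0.07, edgeR adjusted p = 0.0435), with a narrow gap between the groups. Among the other 12 effectors, Rtp4 and Ifi44 did not overlap between the groups but missed the threshold. Rtp4 was at 27.7, 18.2 and 28.5 CPM in Nf1 KO bridge against 17.5, 12.1 and 15.0 CPM in CTL bridge (log2 fold change 0.74, edgeR adjusted p = 0.0789). Ifi44 had a log2 fold change of 0.77 (edgeR adjusted p = 0.0802). Mx1, a GTPase that blocks viral nucleocapsids, and Bst2 overlapped between the groups, at log2 fold changes of 0.57 (edgeR adjusted p = 0.0597) and 0.59 (edgeR adjusted p = 0.0613). Ifit1, Ifit2 and Ifit3, which bind viral RNA, had values of 0.37, 0.05 and 0.05. Mx2, annotated as a polymorphic pseudogene, was at 0.46, Rsad2, whose product viperin makes a chain-terminating nucleotide, at 0.37, the exonuclease gene Isg20 at 0.26, Xaf1 at −0.04 and Ifi35 at −0.05, and none of these 8 passed the threshold. The plot of levels draws 8 of the 37 genes by library.

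**Figure D2:**
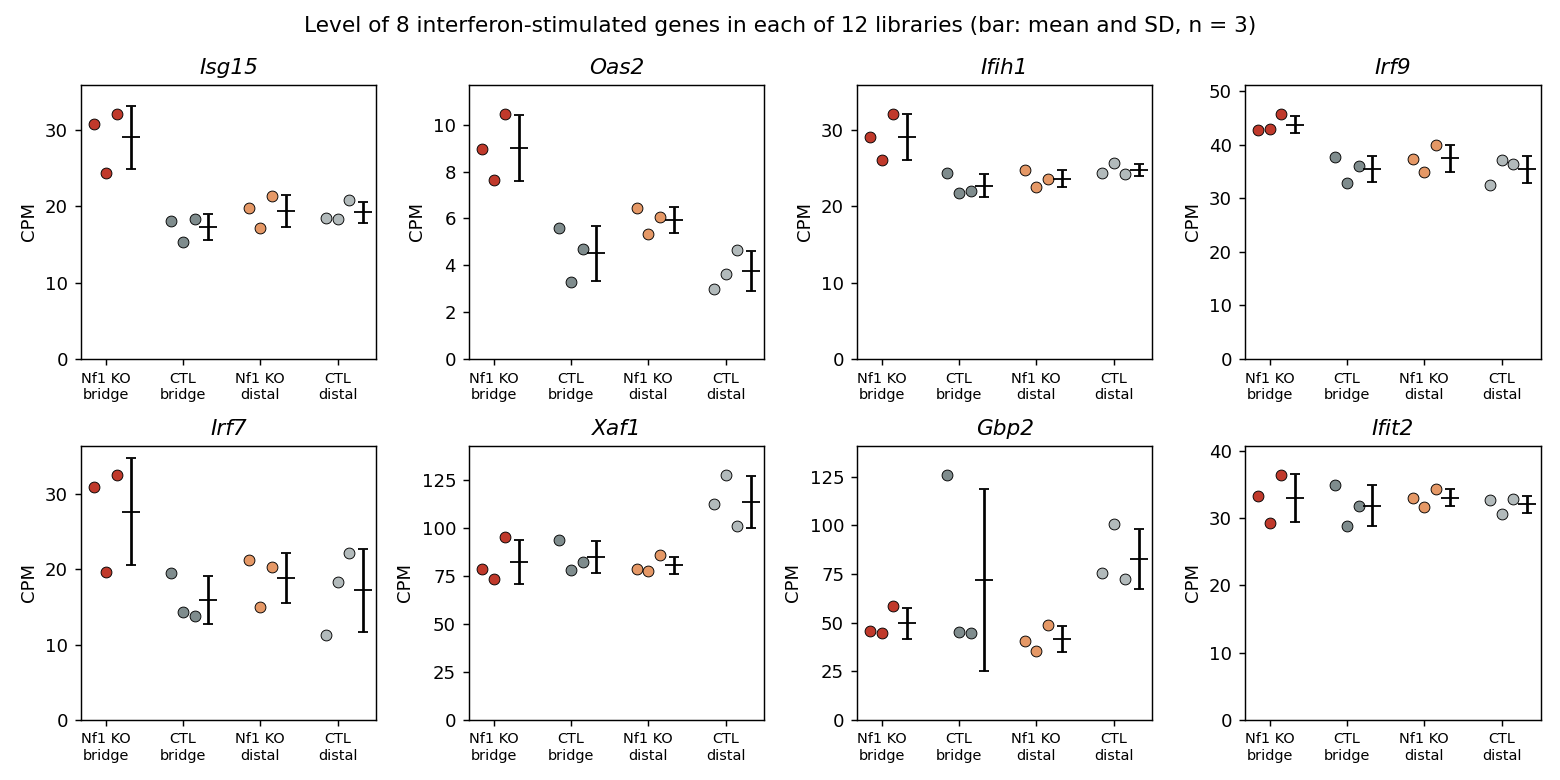
CPM of 8 of the 37 genes in each library (points), with the mean and SD of each group of 3, for Nf1 KO and CTL in the bridge and then in the distal stump. The 3 Nf1 KO bridge points of Isg15 lie between 24.3 and 32.0 CPM, above the 3 CTL bridge points at 15.3 to 18.4 CPM, whereas those of Ifit2 overlap.

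RNA sensors detect double-stranded or uncapped RNA. Ifih1, which encodes MDA5, was at 29.1, 26.0 and 32.0 CPM in Nf1 KO bridge against 24.4, 21.7 and 21.9 CPM in CTL bridge, a log2 fold change of 0.36 (SE 0.08, edgeR adjusted p = 0.0134). The groups did not overlap. The call held with each library left out, and the adjusted p was 0.0520 with edgeR on the bridge libraries alone. Ddx58, which encodes RIG-I, was at 69.6, 76.9 and 72.2 CPM in Nf1 KO bridge against 63.7, 64.0 and 53.2 CPM in CTL bridge and did not pass (log2 fold change 0.27, edgeR adjusted p = 0.165). Dhx58, which encodes their relative LGP2, had a log2 fold change of 0.49 (edgeR adjusted p = 0.0636), and Eif2ak2, the RNA-activated kinase PKR, one of 0.27 (edgeR adjusted p = 0.102). For these 3 genes too, all Nf1 KO bridge libraries stood above all CTL bridge libraries.

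Of the transcription factors, Irf9, the DNA-binding subunit of ISGF3, was at 42.8, 42.9 and 45.7 CPM in Nf1 KO bridge against 37.7, 32.9 and 36.0 CPM in CTL bridge. Its log2 fold change was 0.30 (SE 0.07, edgeR adjusted p = 0.0214), and 123 bases of its exons are shared with Rnf31 on the same strand. Stat2, its partner, was at 20.7, 17.2 and 19.1 CPM in Nf1 KO bridge against 15.3, 13.1 and 15.3 CPM in CTL bridge, a log2 fold change of 0.39 (SE 0.12, edgeR adjusted p = 0.0497). Both sets of libraries stood apart. Irf7, which amplifies interferon production, was at 30.9, 19.6 and 32.5 CPM in Nf1 KO bridge against 19.6, 14.4 and 13.8 CPM in CTL bridge (log2 fold change 0.81, SE 0.27, edgeR adjusted p = 0.0695), so that its lowest Nf1 KO and highest CTL libraries nearly met. Irf1, a transcription factor that interferon-gamma is known to induce, and Usp18, which removes Isg15 from proteins and dampens the receptor, overlapped between the groups at log2 fold changes of −0.16 and 0.15.

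The 4 interferon-inducible GTPases, which act at the vacuoles of intracellular pathogens, included no gene past the threshold in the bridge, and their median log2 fold change was −0.29. Gbp2 was at 45.7, 44.6 and 58.7 CPM in Nf1 KO bridge against 126, 45.2 and 44.7 CPM in CTL bridge. Igtp was at 17.8, 15.2 and 23.5 CPM in Nf1 KO bridge against 56.9, 19.3 and 17.7 CPM in CTL bridge. In both genes CTL library 1 stood far above every other bridge library, and the remaining CTL libraries lay among those of Nf1 KO. Without that library the log2 fold change of Gbp2 was 0.14 in place of −0.53 and that of Igtp 0.02 in place of −0.72, while Gbp3 went to 0.34 in place of −0.05 and Irgm1 to 0.43 in place of 0.05, none past the threshold. The 5 genes of peptide presentation, the immunoproteasome subunits Psmb8 and Psmb9, the transporter subunits Tap1 and Tap2, and B2m, had a median of 0.07, ranging over −0.03 to 0.28, with overlapping groups. Psmb9 and Tap1 share 212 exonic bases on opposite strands.

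How many genes passed in the bridge depended on single bridge libraries. The count was 3 without Nf1 KO library 1, where 8.34% of all genes passed, and 3 without Nf1 KO library 3 (9.9% of all genes). It was 3 without CTL library 2 (9.91%) and 4 without CTL library 3 (11.4%). The highest count with 1 library left out was 11, without Nf1 KO library 2 (9.82%). Over the 6 fits that left out a bridge library, 8.20 to 11.4% of all genes were called. Irf9 reached adjusted p-values of 0.0515, 0.0705 and 0.0765 without Nf1 KO library 1, Nf1 KO library 3 and CTL library 2. Oas3 reached 0.0649 and 0.0668 without Nf1 KO libraries 1 and 3, and 0.0547 and 0.0617 without CTL libraries 2 and 3. Oasl2 and Oas1a lost the threshold without any 1 of those 4 libraries or CTL library 1, at up to 0.105 and 0.108. Parp14 lost it without those same 4, at up to 0.155, and without any 1 of 5 distal libraries, at up to 0.0614; Stat2 lost it without any 1 of the 6 bridge libraries, at up to 0.163, and of 4 distal libraries, at up to 0.0691 (edgeR throughout).

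**Figure D3:**
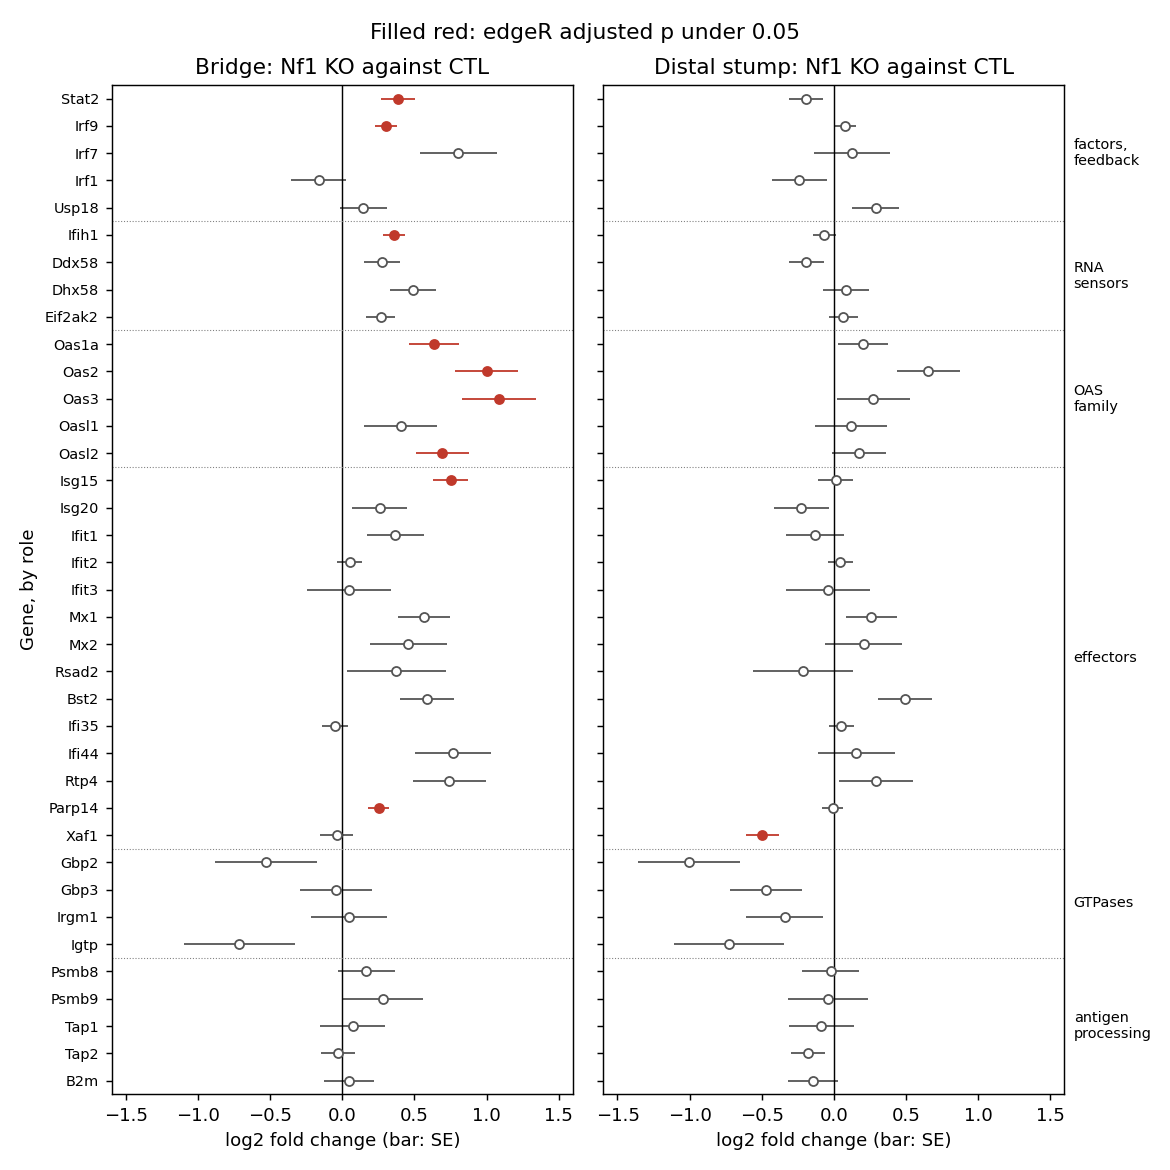
Log2 fold change with its SE for the 37 genes, Nf1 KO against CTL, in the bridge and in the distal stump; filled red points have an edgeR adjusted p under 0.05. In the bridge 9 points are filled, all above 0, and in the distal stump Xaf1 alone, at −0.50.

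In the distal stump, 1 of the 37 genes passed the threshold, Xaf1, and it was lower in Nf1 KO. That is 2.7%, where 8.14% of all genes passed, 4.45% higher and 3.69% lower. Of the 37 fold changes, 18 were above 0, and the median was −0.01 where that of all genes was −0.00. The Nf1 KO libraries stood wholly above those of CTL for 3 genes (Oas2, Mx1 and Bst2) and wholly below for 5 (Xaf1, Gbp2, Gbp3, Irgm1 and Igtp), against 13.9% and 13.2% of all genes, 27.1% in all.

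Xaf1, whose product binds the apoptosis inhibitor XIAP, was at 78.3, 77.3 and 85.6 CPM in Nf1 KO distal stump against 112, 127 and 101 CPM in CTL distal stump. It fell by 0.50 on the log2 scale (SE 0.11, n = 3 each, edgeR adjusted p = 0.0255). The groups did not overlap, but the adjusted p was 0.0637, 0.0869 and 0.0510 without Nf1 KO distal library 1, 2 or 3, and 0.0662 and 0.0833 without CTL distal library 1 or 2. Xaf1 (chr11:72301629-72313733) lies 7.0 Mb from Nf1 on the same chromosome. Within 10 Mb of Nf1, a window chosen after its values were seen, 10.1% of 387 tested genes other than Nf1 passed in the distal stump, where 8.14% of all genes did.

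The 4 GTPases were the group whose libraries separated most in the distal stump, where all 4 stood lower in Nf1 KO. Their median log2 fold change was −0.60, with none past the threshold when all 12 libraries were fitted. For Irgm1 the groups nearly met, at 37.3, 27.8 and 36.8 CPM in Nf1 KO distal stump against 37.5, 52.6 and 38.8 CPM in CTL distal stump. Gbp2 was at 40.6, 35.1 and 48.5 CPM in Nf1 KO distal stump against 75.6, 101 and 72.5 CPM in CTL distal stump, a log2 fold change of −1.0 (SE 0.36, edgeR adjusted p = 0.121). Igtp was at 19.3, 21.2 and 23 CPM in Nf1 KO distal stump against 32.6, 42.3 and 30.1 CPM in CTL distal stump, a log2 fold change of −0.72 (SE 0.38, edgeR adjusted p = 0.297). Without CTL bridge library 1, which enters the shared estimate of spread, Gbp2 had an adjusted p of 0.00797 and Igtp of 0.0341, so that 3 of the 37 genes passed, all lower, where 6.92% of all genes passed in that fit. With edgeR on the distal libraries alone the same 3 genes passed, Gbp2 at 0.0280, Igtp at 0.0402 and Xaf1 at 0.0498, and so did 4.86% of all genes. Igtp shares 162 exonic bases with Irgm2 on the same strand.

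The 5 OAS genes were all above 0 in the distal stump, at a median of 0.20, with none past the threshold. Oas2 was at 6.43, 5.33 and 6.05 CPM in Nf1 KO distal stump against 3.00, 3.62 and 4.65 CPM in CTL distal stump, without overlap (log2 fold change 0.66, SE 0.22, edgeR adjusted p = 0.0988). Bst2 was at 122, 112 and 164 CPM in Nf1 KO distal stump against 85.9, 98.0 and 98.6 CPM in CTL distal stump, also without overlap (log2 fold change 0.50, edgeR adjusted p = 0.142). Isg15 was at 19.7, 17.1 and 21.3 CPM in Nf1 KO distal stump against 18.4, 18.4 and 20.8 CPM in CTL distal stump, with a log2 fold change of 0.01 (SE 0.12). The 5 genes of peptide presentation were all slightly below 0, at a median of −0.09.

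Set against the distal stump, the bridge had higher levels of 6 of the 37 genes in Nf1 KO, namely Isg15, Oasl2, Ifih1, Stat2, Ifit1 and Ifi44, and of none in CTL. In Nf1 KO 15.2% of all genes passed, 7.78% higher and 7.41% lower in the bridge. The libraries stood wholly higher in the bridge for 10 of the 37 and lower for none, where 34% of all genes did not overlap, 17.2% higher and 16.8% lower. The fold change was above 0 for 30 of the 37, at a median of 0.29. Isg15 had 30.7, 24.3 and 32.0 CPM in Nf1 KO bridge against 19.7, 17.1 and 21.3 CPM in Nf1 KO distal stump, a log2 fold change of 0.58 (edgeR adjusted p = 0.00991), and its call held with each library left out in turn, but not without both Nf1 KO bridge library 1 and Nf1 KO distal library 1 (edgeR adjusted p = 0.0628). Oasl2, at 0.80 (edgeR adjusted p = 0.0167), stood apart between the regions, as did Ifih1, at 0.30 (edgeR adjusted p = 0.0275), and Stat2, at 0.44 (edgeR adjusted p = 0.0295). Ifit1 was at 13.0, 9.37 and 14.8 CPM in Nf1 KO bridge against 7.70, 7.34 and 7.96 CPM in Nf1 KO distal stump (log2 fold change 0.69, edgeR adjusted p = 0.0406), and Ifi44 had a log2 fold change of 0.89 (edgeR adjusted p = 0.0453). In the same comparison 6 of 7 endothelial, 2 of 5 fibroblast and 1 of 6 plasmacytoid dendritic cell markers were higher in Nf1 KO bridge. Lower there were 4 of 7 Schwann cell, 3 of 10 macrophage, 2 of 5 adipocyte and 1 of 10 T and NK cell markers. Of 5 perineurial markers 1 was higher and 2 were lower. The part of these markers in the differences was not tested. The count was 1 without Nf1 KO bridge library 1, 1 without Nf1 KO bridge library 3, 2 without Nf1 KO distal library 2 and 1 without Nf1 KO distal library 3. The share of all genes called fell in these fits too, to 9.22%, 9.89%, 9.5% and 8.08%. Ifih1 and Stat2 lost the threshold without any 1 of these 4 libraries, at adjusted p-values of up to 0.101 and 0.104, and Oasl2 without 3 of them, at up to 0.0605. Ifi44 passed in 2 of the 12 fits that left out 1 library and Ifit1 in 4, with adjusted p-values of up to 0.160 and 0.137 (edgeR).

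In CTL, 9.85% of all genes passed between bridge and distal stump, 5.15% higher and 4.71% lower in the bridge, and Xaf1 alone of the 37 did, lower in the bridge. It was at 93.8, 77.8 and 81.9 CPM in CTL bridge against 112, 127 and 101 CPM in CTL distal stump, a log2 fold change of −0.43 (edgeR adjusted p = 0.0425). The fold change was above 0 for 13 of the 37 and the median was −0.12. The libraries stood wholly higher in the bridge for 1 of the 37 and wholly lower for 4, where 29.6% of all genes did not overlap, 15.7% higher and 13.9% lower. The Xaf1 call was lost in 8 of the 12 fits that left out 1 library, at adjusted p-values of 0.0550 to 0.152: any 1 of the 3 CTL bridge libraries, CTL distal library 1 or 2, Nf1 KO bridge library 1, and Nf1 KO distal library 2 or 3. Without CTL bridge library 1 the count was 3, all lower (Gbp2, Igtp and Parp14), where 3.48% of all genes passed. In CTL 4 of 5 fibroblast and 2 of 7 endothelial markers were higher in the bridge. Lower there were 3 of 10 macrophage, 2 of 7 Schwann cell and 1 of 10 T and NK cell markers. Of 5 perineurial markers 2 were higher and 1 was lower. Their part was not tested here either. The comparisons between regions share libraries with those between the genotypes, so the values stand side by side and are not separate evidence.

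Whether the genotype difference itself depended on the region was tested with the interaction of genotype and region. None of the 37 genes passed with edgeR, and neither did any of the 19189 genes (0%). With limma-voom none of the 37 passed, and with DESeq2 Isg15 did, at a difference of 0.74 on the log2 scale (DESeq2 adjusted p = 0.0115, against 0.143 with edgeR and 0.156 with limma-voom). DESeq2 called 3.29% of all genes for the interaction, close to the 2.7% that 1 of 37 makes. At an unadjusted p under 0.05 stood 7 of the 37 genes with edgeR (Isg15, Ifih1, Stat2, Xaf1, Ddx58, Parp14 and Oas3), and 13.2% of all genes. The interaction was above 0 for 35 of the 37, a higher genotype fold change in the bridge than in the distal stump, at a median of 0.35, and above 0 for 50.3% of all genes. A gene past the threshold in the bridge and short of it in the distal stump was thus not shown to differ between the regions.

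Within groups, 1 library was often the lowest or the highest for most of the 37 genes. Nf1 KO bridge library 2 was the lowest of its 3 for 33 of the 37 genes, against 33.8% of all genes, and Nf1 KO bridge library 3 the highest for 29. CTL bridge library 1 was the highest of its 3 for 30 genes, and Nf1 KO distal library 2 the lowest of its 3 for 32. The deviation of a library, as the median over the 37 genes of log2 CPM minus the gene's mean, was 0.28, −0.08 and 0.34 in Nf1 KO bridge libraries 1 to 3 and 0.09, −0.27 and −0.18 in CTL bridge libraries 1 to 3. It was 0.03, −0.21 and 0.05 in Nf1 KO distal libraries and −0.10, −0.02 and −0.00 in CTL distal libraries. By this median CTL bridge library 1 stood above Nf1 KO bridge library 2. Gene by gene, all Nf1 KO bridge libraries stood above all CTL bridge libraries for 15 of the 37.

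The other genes of the pathway, in lists that name none of the 37, were described by the same tests; in the bridge 7.81% of all genes were higher and 6.76% lower, and in the distal stump 4.45% and 3.69%. Of 21 interferon genes, 11 had no count in any library, 6 had at most 9 counts in any library, and the 4 tested (Ifna16, Ifnk, Ifnz and Ifng) did not pass in either region. The highest was Ifnk, at 0.733, 1.62 and 1.79 CPM in Nf1 KO bridge against 0.870, 1.8 and 0.876 CPM in CTL bridge, with overlapping groups. Of 11 receptor and JAK-STAT genes, 2 were higher in Nf1 KO bridge and none lower: Stat3, at a log2 fold change of 0.31 (edgeR adjusted p = 0.0131), and the receptor subunit gene Ifnar1, at 0.29 (edgeR adjusted p = 0.0287).

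Among 19 tested nucleic acid sensors and adaptors, 7 were higher in Nf1 KO bridge and none lower, at a median of 0.32. Tmem173, which encodes the adaptor STING, was at 32.9, 31.3 and 30.8 CPM in Nf1 KO bridge against 19.1, 16.8 and 22.6 CPM in CTL bridge, a log2 fold change of 0.70 (SE 0.10, edgeR adjusted p = 0.00233). Mb21d1, which encodes the DNA sensor cGAS that signals to STING, had a log2 fold change of 0.67 (edgeR adjusted p = 0.00596), Tlr3, the endosomal RNA receptor, one of 0.49 (edgeR adjusted p = 0.0157), Myd88, a Toll-like receptor adaptor, one of 0.32 (edgeR adjusted p = 0.0192), and Irf5, the most abundant of the list, one of 0.47 (edgeR adjusted p = 0.0321). Of 9 genes that restrain the pathway, 2 were higher, the feedback inhibitor Socs3 at 0.50 (edgeR adjusted p = 0.0221) and the RNA-editing enzyme gene Adar at 0.31 (edgeR adjusted p = 0.0330); Samhd1, the most abundant, stood at 0.28 (edgeR adjusted p = 0.179). In the distal stump none of these 3 lists had a gene past the threshold.

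Of 42 further interferon-stimulated genes, 11 were higher and 1 lower in Nf1 KO bridge, at a median of 0.24, and 38 were above 0. Helz2 (log2 fold change 0.50, edgeR adjusted p = 0.00216), Ifi203 (0.62, edgeR adjusted p = 0.0160) and Pml (0.49, edgeR adjusted p = 0.0165) rose, and Ifitm2, the most abundant, stood at 0.17 (edgeR adjusted p = 0.254). The 1 lower gene was Slfn8, at 7.33, 6.88 and 8.12 CPM in Nf1 KO bridge against 14.3, 12.2 and 13.8 CPM in CTL bridge (log2 fold change −0.85, edgeR adjusted p = 0.00338). Slfn8 was also the 1 gene of this list to pass in the distal stump, at 6.56, 4.70 and 6.48 CPM in Nf1 KO against 13.3, 12.1 and 14.5 CPM in CTL (log2 fold change −1.17, edgeR adjusted p = 0.00101). It lies 3.4 Mb from Nf1.

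Interferon-gamma targets and MHC class I genes made up the last list. In the bridge 1 of 26 passed and was higher, Ciita, the activator of MHC class II genes, at a log2 fold change of 0.58 (edgeR adjusted p = 0.0179). There 18 of the 26 were below 0, at a median of −0.11. CTL bridge library 1, which stood far above the other bridge libraries for Gbp2 and Igtp, enters these values. Its part in this list was not tested. In the distal stump 22 of 26 were below 0, at a median of −0.34, and 3 passed, all lower in Nf1 KO. Irgm2, a GTPase gene that overlaps Igtp, was at 11.0, 10.2 and 12.3 CPM in Nf1 KO distal stump against 22.3, 32.1 and 22.4 CPM in CTL distal stump (log2 fold change −1.19, edgeR adjusted p = 0.0148). Cxcl10, a chemokine that draws T cells, was at 20.9, 22.6 and 20.7 CPM in Nf1 KO distal stump against 32.6, 28 and 30.8 CPM in CTL distal stump (log2 fold change −0.51, edgeR adjusted p = 0.0395). Cd274, which encodes PD-L1, had a log2 fold change of −0.98 (edgeR adjusted p = 0.0438). H2-D1, the most abundant gene of the list, was at −0.13 in the bridge and −0.00 in the distal stump.

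**Figure D4:**
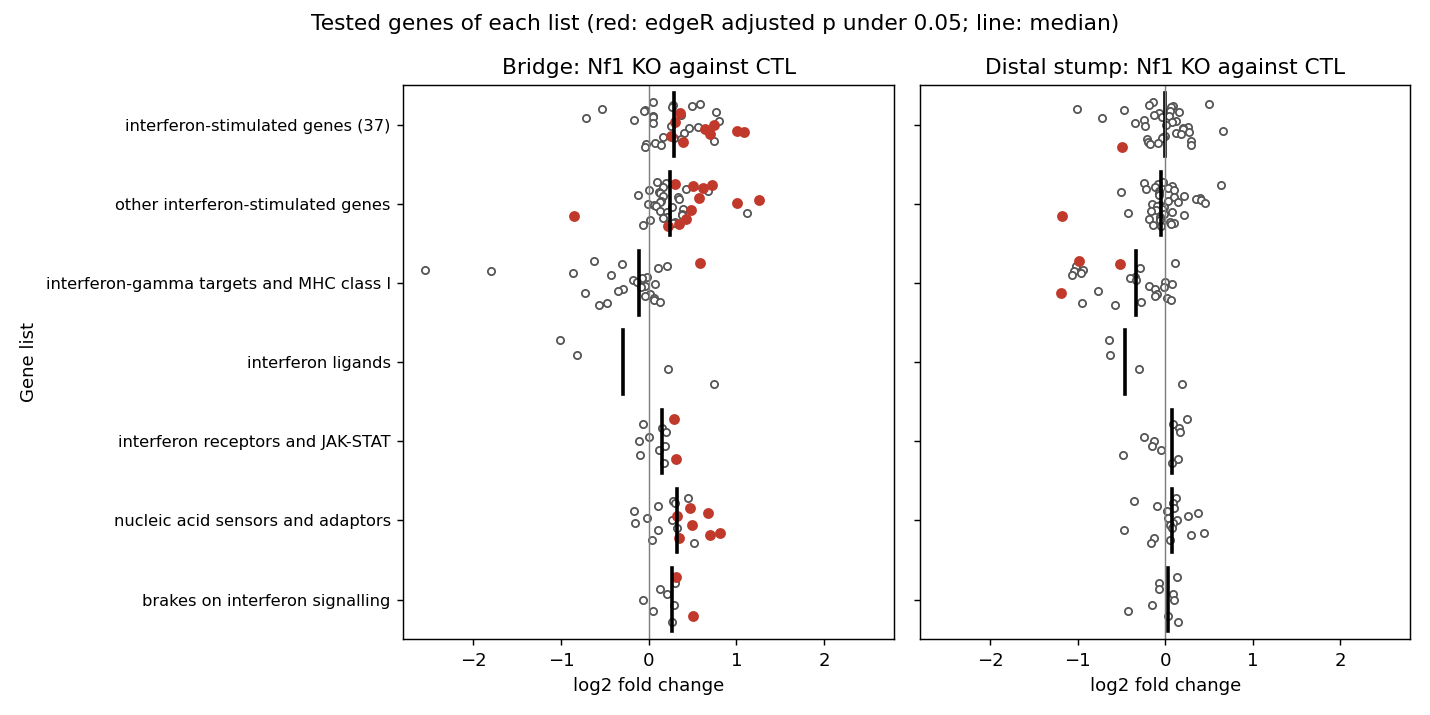
Log2 fold changes, Nf1 KO against CTL, of the tested genes of each list in the bridge and in the distal stump; each point is a gene, red where the edgeR adjusted p was under 0.05, and the line is the list's median. The 37 interferon-stimulated genes have medians of 0.28 in the bridge and −0.01 in the distal stump, and the interferon-gamma targets medians of −0.11 and −0.34.

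Markers of several cell types moved with the genotype, and their part in these results was not tested. Macrophage markers summed to 1735 to 2184 CPM in Nf1 KO bridge against 1524 to 1936 CPM in CTL bridge, and 2 of 10 were higher by edgeR. Plasmacytoid dendritic cell markers, of the cell type known for type I interferon, summed to 142 to 166 CPM in Nf1 KO bridge against 132 to 172 CPM in CTL bridge, with 1 of 6 higher. The mean log2 of CPM plus 1 over these 6 was 2.90 in Nf1 KO bridge and 2.91 in CTL bridge. The sum thus rested unevenly on the 6 and does not measure how many such cells were present. Schwann cell markers summed to 5013 to 6561 CPM in Nf1 KO bridge against 8301 to 10935 CPM in CTL bridge, with 4 of 7 lower, and skeletal muscle markers to 415 to 1497 CPM against 1053 to 8046 CPM, with none of 6 past the threshold. In the distal stump, T and NK cell markers summed to 39.6 to 44.2 CPM in Nf1 KO against 40.3 to 62.1 CPM in CTL, with 1 of 10 lower, and endothelial markers to 196 to 228 CPM in Nf1 KO against 268 to 310 CPM in CTL, with 4 of 7 lower. There 3 of 5 fibroblast and 2 of 10 macrophage markers were also higher in Nf1 KO, and 3 of 7 Schwann cell and 3 of 5 perineurial markers lower. Neutrophil markers, at 87.5 to 1274 CPM in Nf1 KO bridge against 73.8 to 224 CPM in CTL bridge, had none of 10 past the threshold. In the bridge 1 of 10 T and NK cell markers and 1 of 7 endothelial markers were lower in Nf1 KO. Of the remaining lists, all 5 adipocyte markers and 4 of 5 perineurial markers were lower in Nf1 KO bridge. There 2 of 5 fibroblast markers were higher and 1 lower, and none of the B and plasma cell, erythroid and keratinocyte markers tested passed. No marker of the 7 lists whose sums are given was at 0 in every library of a group. Leaving out CTL bridge libraries 1 and 3, those with the most muscle RNA, kept CTL bridge library 2 as the only library of its group. In that fit the bridge log2 fold change was 1.07 for Oas3, 0.85 for Oasl2, 0.73 for Oas1a and 0.54 for Stat2. It was 0.42 for Ifih1, 0.42 for Irf9 and 0.39 for Parp14. With Nf1 KO bridge library 1 and Nf1 KO distal library 1 left out, those with the most neutrophil RNA, 3 of the 37 genes passed in the bridge. These were Isg15, Oas2 and Ifih1, where 9.08% of all genes passed. Y-linked genes summed to 41.2 to 147 CPM in Nf1 KO bridge against 102 to 216 CPM in CTL bridge, and differed between the pools of a group. With their mean as a covariate 14 of the 37 genes passed in the bridge, all higher, where 11.4% of all genes did. None passed in the distal stump, where 5.52% of all genes did and Xaf1 had an adjusted p of 0.122 (edgeR).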

How the data were processed

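Gene expression was measured by RNA-seq of rRNA-depleted total RNA in 12 libraries, made with a directional kit and 15 cycles of amplification, per the labels' protocols. The values were deposited by the authors as whole numbers under the name of raw counts, not scaled to library size, and are read here as rounded estimated counts. Among genes up to 120 bases long no value above 0 was under 10. Per the submitters' processing notes, the build was mm10, and DESeq2, cutadapt 1.2.1 and CASAVA 1.8.2 are named with no role. Aligner, counter and strand setting were not given in any source used here. Totals ran from 18821445 to 38981819 counts.

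All 12 libraries entered 1 quasi-likelihood fit in edgeR 4.0.16 (R 4.3.3) with the 4 groups, TMM scaling and edgeR's expression filter by group. Adjusted p-values are Benjamini-Hochberg over all 19189 tested genes, with a threshold of 0.05, and the SE is the log2 fold change divided by the root of F. The steps were tested on simulated data. Alternatives were DESeq2 1.42.0, limma-voom (limma 3.58.1), RLE size factors, no filter, a replicate block, only the compared groups, each library left out in turn and a Y-linked covariate. Coordinates and exon lengths are from GENCODE M21 on GRCm38, the assembly of mm10. The 37 genes, roles and further lists were chosen with earlier results of these data known. Of each further list, the text names up to 4 genes with the smallest p per genotype comparison among those past the threshold and the gene with the highest mean CPM; Oas1g was added after its values were seen. Some results are not reported here. The 3-count floor covers counting error only.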

Additional observations from a re-analysis of the deposited data

How the results depend on the processing

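Counts of called genes among the 37 are given here with the share of all genes called in the same fit. Between the genotypes in the bridge the count was 9 (14.6%). It was 14 with DESeq2 (19.2%), 14 with the Y-linked covariate (11.4%) and 7 with no filter (9.54%, Stat2 and Parp14 lost). With the compared groups alone it was 6 (12.5%), with Ifih1, Oas1a, Stat2 and Parp14 lost and Eif2ak2 gained. Leaving out each library in turn gave 3 to 11 (8.2 to 15%), and leaving out Nf1 KO bridge 1 and Nf1 KO distal 1 gave 3 (9.08%). Leaving out CTL bridge 1 and 3 kept CTL bridge 2 as the only library of its group, so no count is given for that fit. The settings that left out a pair were chosen after seeing the data. In the distal stump the count was 1 (8.14%), against 3 with the compared groups alone (4.86%) and 0 with the Y-linked covariate (5.52%). There it was 0 to 3 with each library left out (4.48 to 7.96%) and 0 without Nf1 KO bridge 1 and Nf1 KO distal 1 (5.46%). Between bridge and distal stump in Nf1 KO the count was 6 (15.2%), against 11 with DESeq2 (20%) and 3 with the compared groups alone (12%). With each library left out it was 1 to 7 (8.08 to 14.7%). Without Nf1 KO bridge 1 and Nf1 KO distal 1 it was 3 (9.5%), with Isg15, Ifih1, Stat2, Ifit1 and Ifi44 lost and Ddx58 and Eif2ak2 gained. In CTL the count was 1 (9.85%), against 2 with DESeq2 (15.1%), 2 with the Y-linked covariate (9.22%) and 0 with no filter (6.4%). It was 0 with the compared groups alone (4.74%) and 0 to 3 with each library left out (3.47 to 10.5%). Without Nf1 KO bridge 1 and Nf1 KO distal 1 it was 0 (9.47%). For the interaction it was 0 (0%), against 1 with DESeq2 (3.29%) and 0 with each library left out (0%). RLE size factors left every count as it was. No called value reversed. Between bridge and distal stump, deviations of same-numbered libraries correlated at 0.139, 0.034 and 0.0749 in Nf1 KO. In CTL they correlated at 0.0277, 0.00682 and 0.0298. Differently numbered ones ran from −0.103 to 0.0355 in Nf1 KO and from −0.0447 to 0.0163 in CTL. Between the genotypes, same-numbered ones ran from −0.064 to 0.0811. The labels do not say that the numbers mark shared mice, and these values do not settle it. The main comparisons between regions used no pairing by number. With the replicate block the count was 9 in the bridge (12.8% of all genes, Stat2 lost at 0.0837, Rtp4 gained at 0.0456). In the distal stump it was 0 (6.69% of all genes, Xaf1 lost at 0.0508). With the block the count between regions was 5 in Nf1 KO (12.8% of all genes, Ifi44 and Stat2 lost, Rtp4 gained). It was 1 in CTL (7.8% of all genes, Xaf1 lost at 0.0739, Parp14 gained at 0.0295). For the interaction it was 0 (0% of all genes, edgeR adjusted p throughout). Beyond the construction of each setting (fewer libraries or genes), the cause of these shifts was not tested. The lowest count of any of the 37 genes in any library was 30, for Oas3 in CTL bridge 1, and counting error is largest for that gene.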
